A study of Mus musculus with 12 samples.

Results

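The genes described here mostly belong to fibroblast growth factor (FGF) and receptor tyrosine kinase signalling, and to the feedback loop it switches on. They were chosen by name, from the gene symbols of the array's probe sets: FGF ligands, FGF receptors and binding proteins, Sprouty and Spred inhibitors, dual-specificity phosphatases (Dusp), Etv transcription factors, the EGF receptor family with 3 of its ligands, Met, Kit, the Kit ligand Kitl, and the insulin and IGF1 genes. The rule took 46 of the 10360 probe sets in the deposited table, and each stood for a different gene. The current mouse gene table holds 82 protein-coding genes whose symbols match, and the other 36 were not analysed here. Among those 36 are Fgf5, Fgf8, Fgfr3, Fgfr4, Spry1, Dusp5, Dusp6, Erbb4 and Areg. The rule itself reads symbols and no values, although it was drawn up with earlier results of these data known. Fgfr1op2, a gene named as a fusion partner of Fgfr1, came in by its symbol alone. Of the Dusp genes, 9 were listed outside the MAP kinase phosphatases, and their symbols alone do not place them in the feedback loop.

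The study followed mouse cells reprogrammed by Oct4, a transcription factor of pluripotent cells, and by Tet1, which oxidises methylated cytosine in DNA, on 12 Affymetrix arrays in 4 groups of 3. The iPS cells were 1 line induced with Oct4 and Tet1, at passage 10 on the OG2-GFP/Rosa26-M2rtTA background. R1 ES cells had reached passage 20 and are of strain 129. Day-1 cells were fibroblasts at passage 3, obtained from mice made with those reprogrammed cells, of the same OG2-GFP/Rosa26-M2rtTA background, and kept for 1 day in ES medium containing doxycycline, which switches on the introduced factors. Fibroblasts were at passage 3 without doxycycline in their labels, on OG2-GFP/Rosa26-M2rtTA, written with M3rtTA and M4rtTA for replicates 2 and 3. Both pluripotent lines grew with LIF on feeder fibroblasts stopped by mitomycin C, while day-1 cells had moved from feeder medium to ES medium, so that drug and medium differ together from the fibroblasts. Each pluripotent group is 1 line, and the labels do not say whether the arrays of a group hold RNA of separate cultures. The p-values then measure only the spread between arrays, which may be technical.

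FGFs bind heparan sulphate and a receptor tyrosine kinase at the cell surface, and the activated receptor passes the signal through Ras and Raf to the kinase ERK. ERK activity raises transcription of its own brakes. Sprouty and Spred proteins act on Ras and Raf, and some of the dual-specificity phosphatases remove phosphates from MAP kinases. The PEA3 factors Etv1, Etv4 and Etv5 are ETS proteins that carry the response to target genes. In mouse ES cells, Fgf4 made by the cells themselves drives ERK and prepares them to leave the naive state, while LIF supports self-renewal.

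Labels and cell markers were set side by side first. Pou5f1, which encodes Oct4, had log2 values of 12.01, 12.04 and 11.96 in iPS cells, 12.36, 12.37 and 12.36 in ES cells, then 11.85, 11.73 and 11.81 in day-1 cells, against 4.96, 5.24 and 4.91 in fibroblasts. The mean log2 value of 12 pluripotency markers lay at 11.22 to 11.24 in iPS arrays, 11.53 to 11.64 in ES arrays and 5.72 to 5.77 in day-1 arrays, against 4.96 to 5.26 in fibroblast arrays. Pou5f1, the induced factor, is 1 of these 12. It alone was called higher in day-1 cells than in fibroblasts, and for 9 of the 12 the arrays of these 2 groups overlapped. That of 11 fibroblast markers lay at 8.91 to 9.06 in iPS arrays, 7.73 to 8.22 in ES arrays and 11.41 to 11.47 in day-1 arrays, against 11.65 to 11.89 in fibroblast arrays. The iPS arrays thus had a higher fibroblast marker mean than the ES arrays, and the part of feeder fibroblasts in either was not tested. Col1a1, a collagen gene, read 12.22, 12.18 and 12.27 in iPS cells, 9.45, 10.26 and 9.69 in ES cells, then 12.10, 12.10 and 12.15 in day-1 cells, against 11.86, 12.02 and 11.99 in fibroblasts. No mast cell marker of 8 was measured, so Kit could not be set beside that cell type. Array medians were 7.98 to 8.06 in iPS cells, 7.89 to 7.98 in ES cells and 8.25 to 8.29 in day-1 cells, against 8.25 to 8.29 in fibroblasts. Arrays of 1 group correlated with r of 0.988 to 0.997 over the genes, and the number of arrays limits the precision.

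Taken as a whole, the 46 genes set the pluripotent arrays apart from the other arrays as often as the genes of the table at large. For 37 of them (80.4%), all 6 iPS and ES arrays lay above or below all 6 day-1 and fibroblast arrays, against 80.3% of all 9539 genes tested. They lay above for 12 genes (26.1%), where 35.4% of all genes did, and below for 25 (54.3%), where 44.9% did. The remaining 9 overlapped: Dusp1, Dusp4, Dusp14, Etv1, Etv4, Fgf10, Hbegf, Spred1 and Spred2. A gene is called here where limma's adjusted p, over all 9539 genes, is under 0.05 and the log2 difference is at least 1, a 2-fold change. In iPS cells against fibroblasts, 10 of the 46 genes were called higher, where 21.8% of all tested genes were, and 21 lower, where 29.6% were. In ES cells against the same fibroblast arrays, 12 genes were called higher (background 23.4%) and 22 lower (background 32.1%), a split of 35.3% higher that became 46.7% with arrays centred on a common median. In iPS cells against day-1 cells, 10 were called higher (background 17.6%) and 22 lower (background 26.6%). The median log2 difference of the 46 genes was -0.94 for iPS cells and -0.87 for ES cells against fibroblasts, and -0.84 for iPS cells against day-1 cells. Over all tested genes these medians were -0.35, -0.35 and -0.34. In bulk RNA a lower value from fewer cells of a type cannot be told apart from less RNA per cell.

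**Figure D1:**
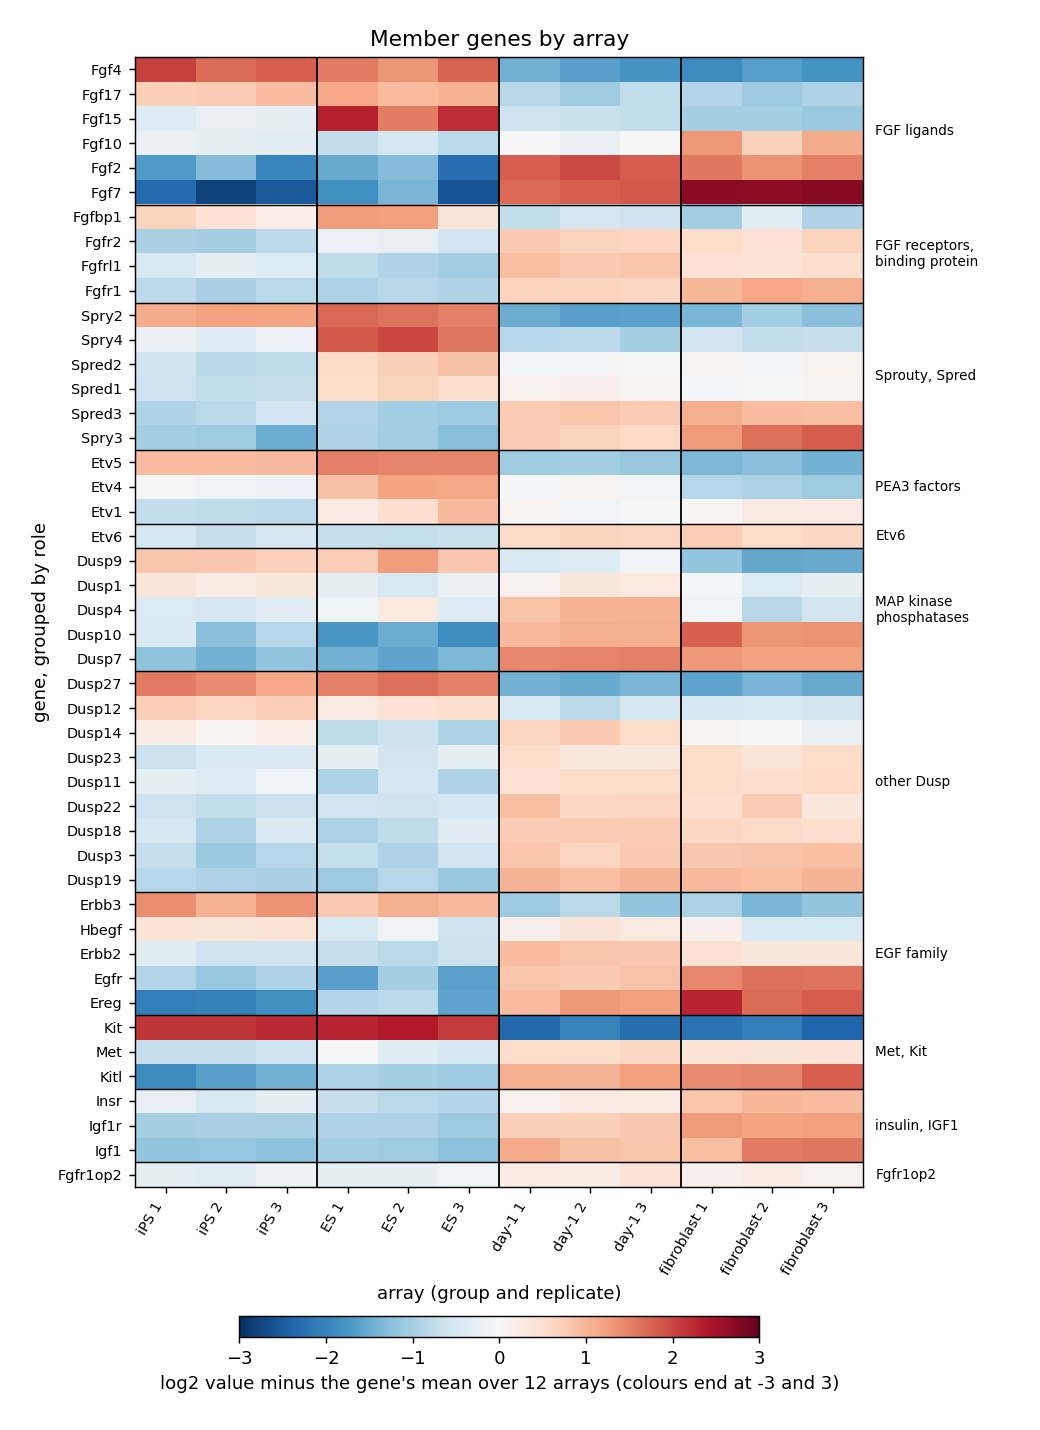
Log2 value of each of the 46 genes on each of the 12 arrays (columns, by group and replicate) minus that gene's mean over the arrays, as colour from blue (below) to red (above), with genes in rows by role. Kit, Fgf4, Spry2, Etv5 and Dusp27 are red in the 6 iPS and ES arrays, Fgf7, Fgf2, Egfr and Igf1 are blue there, and Fgf15 and Spry4 stand out in the 3 ES arrays.

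The 6 measured FGF ligands divided into those high in pluripotent cells and those high in fibroblasts. Fgf4, the ligand that ES cells make for themselves, had log2 values of 10.37, 10 and 10.12 in iPS cells, 9.89, 9.65 and 10.07 in ES cells, then 6.89, 6.70 and 6.56 in day-1 cells, against 6.42, 6.67 and 6.54 in fibroblasts. Every pluripotent array was high and every day-1 and fibroblast array low, with no overlap between them. The level was 12.3-fold higher in iPS cells than in fibroblasts, or 3.62 ± 0.13 as a log2 difference with its SE (adjusted p = 1.4e-11 by limma), and 3.33 ± 0.13 in ES cells (limma adjusted p = 2.1e-11). Fgf17, a relative of Fgf8 known from the developing midbrain, read 7.79, 7.83 and 7.99 in iPS cells, 8.20, 8.02 and 8.10 in ES cells, then 6.23, 6.0 and 6.32 in day-1 cells, against 6.20, 5.99 and 6.15 in fibroblasts. Its log2 differences from fibroblasts were 1.76 ± 0.10 in iPS cells and 2.00 ± 0.10 in ES cells, both called higher.

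Fgf15, the mouse counterpart of human FGF19 and a hormone-like FGF that restrains bile acid synthesis, did not follow Fgf4. Its log2 values were 6.17, 6.31 and 6.27 in iPS cells, 8.89, 8.08 and 8.77 in ES cells, then 5.94, 5.88 and 5.81 in day-1 cells, against 5.55, 5.56 and 5.43 in fibroblasts. The 3 ES arrays stood far above the other 9, and the iPS arrays lay just above the day-1 arrays. In ES cells it was called higher than in fibroblasts by 3.06 ± 0.16 on the log2 scale, while the log2 difference of 0.74 ± 0.16 in iPS cells stayed under the 2-fold minimum. Fgf15 and Fgf4 are neighbours on chromosome 7, where Fgf3 and Fgf15 flank Fgf4 among the protein-coding genes of the mouse gene table.

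Fgf7, which mesenchymal cells make for neighbouring epithelium, fell furthest of the 46 genes in iPS cells. Its log2 values were 7.09, 6.64 and 6.92 in iPS cells, 7.58, 8.06 and 6.84 in ES cells, then 11.12, 11.22 and 11.26 in day-1 cells, against 12.13, 12.12 and 12.16 in fibroblasts. All 6 pluripotent arrays were low, and the ES arrays spread the widest. The level in iPS cells was 38.1-fold lower than in fibroblasts, a log2 difference of -5.25 ± 0.22 (limma adjusted p = 7.5e-11). Fgf2, a broadly acting FGF without a classical secretion signal, read 6.59, 6.98 and 6.32 in iPS cells, 6.76, 6.98 and 6.0 in ES cells, then 10.08, 10.27 and 10.09 in day-1 cells, against 9.87, 9.62 and 9.80 in fibroblasts. It was 8.76-fold lower in iPS cells and 9.08-fold lower in ES cells than in fibroblasts, both called. Fgf10, another mesenchymal ligand for epithelium, already differed in day-1 cells. Its log2 values were 7.17, 7.10 and 7.08 in iPS cells, 6.66, 6.85 and 6.57 in ES cells, then 7.41, 7.17 and 7.40 in day-1 cells, against 8.69, 8.07 and 8.49 in fibroblasts. Fibroblasts alone were high, and iPS and day-1 arrays touched at 7.17.

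The 3 measured FGF receptors read lower in pluripotent cells than in fibroblasts, and the binding protein higher. Fgfr1, the main FGF receptor of ES cells, had log2 values of 9.36, 9.16 and 9.34 in iPS cells, 9.20, 9.32 and 9.25 in ES cells, then 10.82, 10.81 and 10.77 in day-1 cells, against 11.13, 11.31 and 11.24 in fibroblasts. The log2 difference from fibroblasts was -1.95 ± 0.08 in iPS cells and -1.97 ± 0.08 in ES cells. The 2 lines overlapped. Fgfr2, whose epithelial form binds Fgf7 and Fgf10, read 6.63, 6.62 and 6.82 in iPS cells, 7.42, 7.36 and 7.03 in ES cells, then 8.39, 8.28 and 8.26 in day-1 cells, against 8.15, 8.05 and 8.27 in fibroblasts. It was called lower in iPS cells (log2 difference -1.47 ± 0.10), while the log2 difference of -0.89 ± 0.10 in ES cells was not called. Fgfrl1, an FGF receptor without a kinase domain, had log2 differences from fibroblasts of -0.83 ± 0.08 in iPS cells, not called, and -1.34 ± 0.08 in ES cells, called as deposited but not with centred arrays (-1.0). Fgfbp1, a secreted carrier that frees FGFs from the matrix, was called higher in both lines, by 1.18 ± 0.23 in iPS cells and 1.70 ± 0.23 in ES cells on the log2 scale. Its arrays scattered, at 6.56, 6.32 and 6.09 in iPS cells and 7.15, 7.13 and 6.26 in ES cells, against 4.86, 5.58 and 4.98 in fibroblasts.

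Among the 6 Sprouty and Spred inhibitors, the members took different courses. Spry2 had log2 values of 10.80, 10.90 and 10.88 in iPS cells, 11.42, 11.31 and 11.20 in ES cells, then 8.21, 8.05 and 8.08 in day-1 cells, against 8.31, 8.67 and 8.43 in fibroblasts. Both pluripotent lines were high, ES cells above iPS cells without overlap, and day-1 cells were the lowest group. It was called higher than in fibroblasts by 2.39 ± 0.09 in iPS cells and 2.84 ± 0.09 in ES cells on the log2 scale. Spry4, an inhibitor that ERK signalling induces, read 9.16, 8.99 and 9.19 in iPS cells, 11.20, 11.38 and 10.94 in ES cells, then 8.52, 8.58 and 8.36 in day-1 cells, against 8.79, 8.63 and 8.67 in fibroblasts. The ES arrays were high, and the iPS arrays lay nearer to the fibroblasts than to the ES cells. In ES cells the log2 difference from fibroblasts was 2.48 ± 0.11, called, and in iPS cells 0.42 ± 0.11, not called. Spry3 ran the other way, with 4.90, 4.87 and 4.44 in iPS cells, 5.03, 4.90 and 4.65 in ES cells, then 6.69, 6.59 and 6.53 in day-1 cells, against 7.21, 7.57 and 7.75 in fibroblasts. It was called lower than in fibroblasts by 6.83-fold in iPS cells and 6.28-fold in ES cells.

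Spred1 and Spred2, which hold Raf in check at the membrane, were lowest in iPS cells and highest in ES cells. Spred1 had log2 values of 8.98, 8.85 and 8.89 in iPS cells, 10.11, 10.26 and 10.06 in ES cells, then 9.72, 9.75 and 9.65 in day-1 cells, against 9.53, 9.60 and 9.68 in fibroblasts. Spred2 read 8.53, 8.31 and 8.36 in iPS cells, 9.70, 9.84 and 10 in ES cells, then 9.10, 9.07 and 9.15 in day-1 cells, against 9.21, 9.08 and 9.23 in fibroblasts. For both genes the iPS and ES arrays lay on opposite sides of the fibroblast arrays. Against fibroblasts neither passed the 2-fold minimum in either line, with log2 differences of -0.70 ± 0.07 in iPS cells and 0.54 ± 0.07 in ES cells for Spred1, and -0.77 ± 0.09 in iPS cells and 0.67 ± 0.09 in ES cells for Spred2, which passed in ES cells with centred arrays (1.02). Spred3 was called lower than in fibroblasts in both lines, with log2 differences of -1.73 ± 0.09 in iPS cells and -1.96 ± 0.09 in ES cells.

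The PEA3 factors ranged from Etv5, high in both lines, to Etv1, low in iPS cells. Etv5 had log2 values of 10.89, 10.91 and 10.95 in iPS cells, 11.49, 11.45 and 11.43 in ES cells, then 8.91, 8.94 and 8.83 in day-1 cells, against 8.63, 8.72 and 8.55 in fibroblasts. It was called higher than in fibroblasts by 2.28 ± 0.07 in iPS cells and 2.82 ± 0.07 in ES cells on the log2 scale. Etv4 read 8.12, 8.01 and 7.97 in iPS cells, 9.02, 9.32 and 9.29 in ES cells, then 8.09, 8.23 and 8.06 in day-1 cells, against 7.28, 7.18 and 7.07 in fibroblasts. Fibroblasts were low, iPS and day-1 arrays overlapped in the middle, and ES arrays were high. Its log2 difference from fibroblasts was 2.03 ± 0.09 in ES cells, called, and 0.86 ± 0.09 in iPS cells, not called as deposited but called with arrays centred on a common median (1.11). Etv1 had 6.61, 6.58 and 6.54 in iPS cells, 7.59, 7.85 and 8.32 in ES cells, then 7.42, 7.26 and 7.37 in day-1 cells, against 7.41, 7.60 and 7.62 in fibroblasts. The iPS arrays lay below all others, while ES and fibroblast arrays overlapped. Etv6, an ETS repressor outside the PEA3 group, was called lower than in fibroblasts in both lines, with log2 differences of -1.21 ± 0.07 in iPS cells and -1.33 ± 0.07 in ES cells. With arrays centred on a common median these were -0.96 and -0.98, and neither call held.

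**Figure D2:**
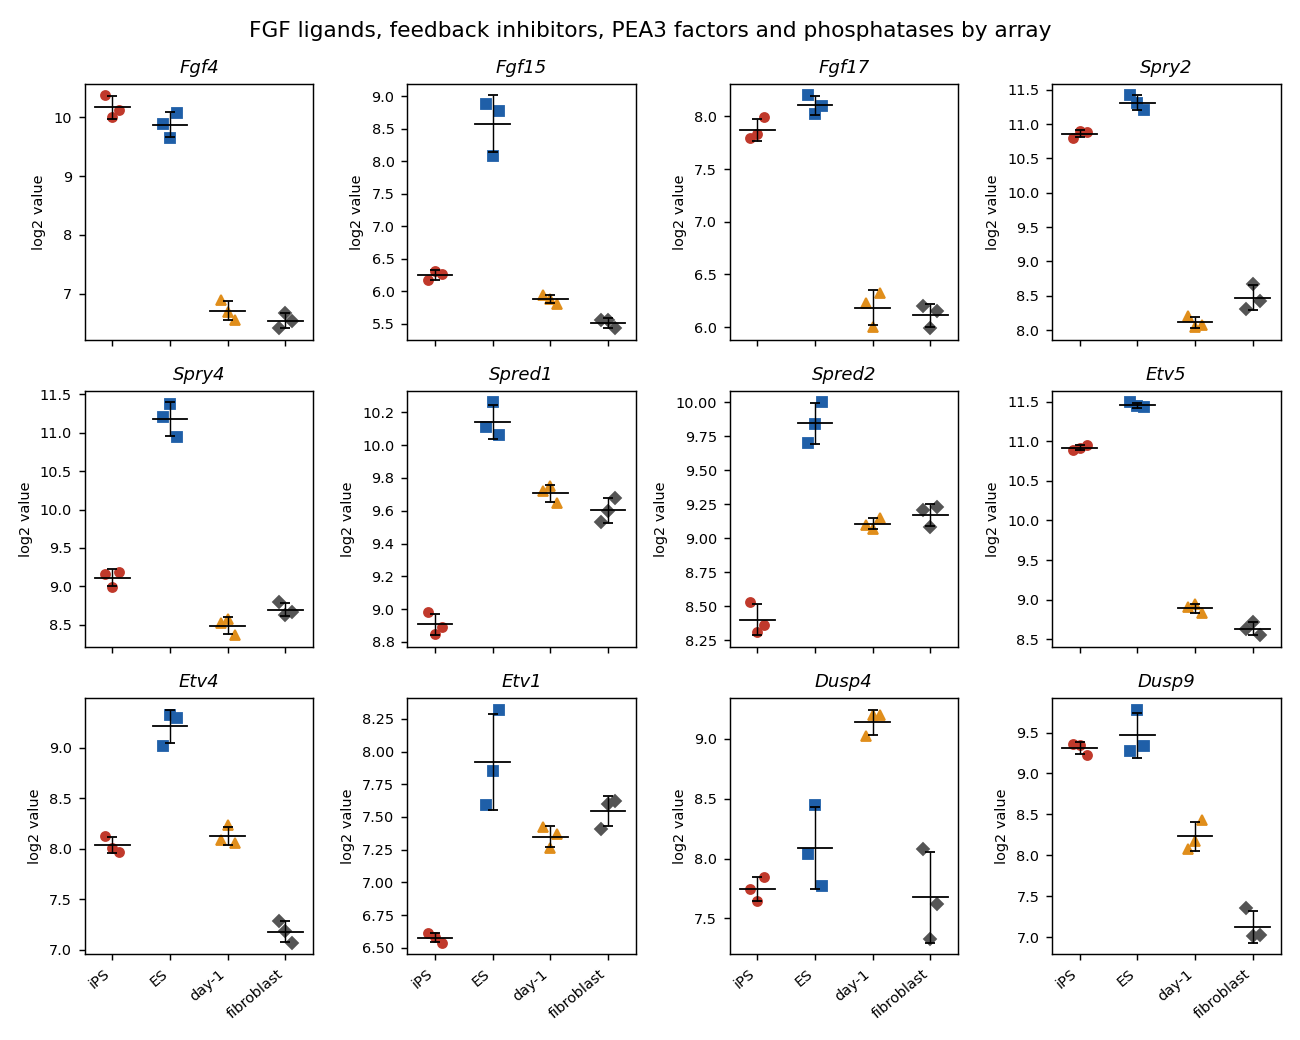
Log2 values of 12 genes by array, with a point per array, a line at the mean and a bar of 1 SD (n = 3), for iPS, ES, day-1 and fibroblast groups from left to right. Each panel has its own axis, which does not start at 0. Fgf4, Spry2 and Etv5 are high in iPS and ES cells, Fgf15 and Spry4 are high in ES cells, Spred1, Spred2 and Etv1 are lowest in iPS cells, and Dusp4 is highest in day-1 cells.

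The MAP kinase phosphatases, which switch off ERK and its relatives, had no common direction. Dusp9, a cytoplasmic phosphatase of ERK, had log2 values of 9.36, 9.35 and 9.23 in iPS cells, 9.28, 9.78 and 9.34 in ES cells, then 8.08, 8.18 and 8.43 in day-1 cells, against 7.35, 7.01 and 7.02 in fibroblasts. The day-1 arrays stood between fibroblasts and the pluripotent lines, with no overlap on either side. Dusp9 was called higher than in fibroblasts by 4.54-fold in iPS cells and 5.06-fold in ES cells. Dusp7, which also acts on ERK, read 8.30, 8.07 and 8.32 in iPS cells, 8.07, 7.91 and 8.16 in ES cells, then 10.93, 10.96 and 11.02 in day-1 cells, against 10.80, 10.71 and 10.71 in fibroblasts. It was 5.71-fold lower in iPS cells and 6.47-fold lower in ES cells than in fibroblasts, and Dusp10, which acts on the stress kinases, was 4.98-fold lower in iPS cells and 9.02-fold lower in ES cells, all called. Dusp4, a nuclear phosphatase induced by ERK, had 7.75, 7.65 and 7.85 in iPS cells, 8.04, 8.45 and 7.77 in ES cells, then 9.02, 9.20 and 9.20 in day-1 cells, against 8.08, 7.33 and 7.62 in fibroblasts. The 3 day-1 arrays were the highest, and the other groups overlapped. Dusp1, an immediate early phosphatase, read 11.55, 11.41 and 11.52 in iPS cells, 10.90, 10.70 and 10.99 in ES cells, then 11.31, 11.53 and 11.47 in day-1 cells, against 11.16, 10.78 and 10.90 in fibroblasts. None of its differences reached 2-fold.

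Of the 9 other dual-specificity phosphatases, Dusp27 and Dusp12 were called higher in iPS cells than in fibroblasts and Dusp19, Dusp3, Dusp18 and Dusp22 lower. Dusp27 had log2 values of 8.25, 8.09 and 7.84 in iPS cells, 8.19, 8.33 and 8.20 in ES cells, then 5.27, 5.17 and 5.31 in day-1 cells, against 5.09, 5.29 and 5.17 in fibroblasts. Its level was 7.35-fold higher in iPS cells and 8.32-fold higher in ES cells than in fibroblasts. In ES cells Dusp27 was the 1 called higher, and Dusp11 joined the 4 called lower, with a log2 difference of -1.32 ± 0.11 that centred arrays put at -0.98. The lower genes differed less, with log2 differences in iPS cells between -1.89 ± 0.08 for Dusp19 and -1.19 ± 0.10 for Dusp22. Centring the arrays on a common median ended the calls of Dusp18 and Dusp22 in both lines, at log2 differences of -0.95 and -0.93 in iPS cells and -0.91 and -0.74 in ES cells. Dusp11, Dusp14 and Dusp23 had log2 differences of -0.80, 0.22 and -0.98 in iPS cells against fibroblasts, and were not called. Dusp14, at -0.73, and Dusp23, at -0.86, were not called in ES cells either, nor was Dusp12, at 0.92 as deposited, which passed with centred arrays (1.26).

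Receptors and ligands of the EGF family did not share a direction. Erbb3, the neuregulin receptor with little kinase activity of its own, had log2 values of 8.58, 8.22 and 8.53 in iPS cells, 7.96, 8.24 and 8.15 in ES cells, then 6.08, 6.38 and 5.99 in day-1 cells, against 6.22, 5.82 and 5.99 in fibroblasts. It was called higher than in fibroblasts by 2.44 ± 0.13 in iPS cells and 2.11 ± 0.13 in ES cells on the log2 scale. Egfr, the EGF receptor, read 7.91, 7.65 and 7.85 in iPS cells, 7.17, 7.79 and 7.18 in ES cells, then 9.61, 9.57 and 9.65 in day-1 cells, against 10.23, 10.43 and 10.41 in fibroblasts. It was 5.88-fold lower in iPS cells and 7.86-fold lower in ES cells, both called. Ereg, an EGF receptor ligand, had 6.53, 6.59 and 6.78 in iPS cells, 7.73, 7.81 and 7.02 in ES cells, then 9.55, 9.91 and 9.85 in day-1 cells, against 10.89, 10.28 and 10.42 in fibroblasts. It was 14.9-fold lower in iPS cells and 8.05-fold lower in ES cells, both called. Erbb2, the family member with no known ligand, had log2 differences from fibroblasts of -0.91 ± 0.08 in iPS cells, not called, and -1.10 ± 0.08 in ES cells, called as deposited but not with centred arrays (-0.75). The ligand Hbegf was called in neither line, with log2 differences of 0.66 ± 0.16 in iPS cells and -0.13 ± 0.16 in ES cells.

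Kit and its ligand were placed on opposite sides. Kit, the receptor for stem cell factor, had log2 values of 10.03, 10.03 and 10.11 in iPS cells, 10.17, 10.25 and 9.97 in ES cells, then 5.53, 5.88 and 5.62 in day-1 cells, against 5.65, 5.80 and 5.51 in fibroblasts. Kitl, which encodes stem cell factor, read 5.41, 5.67 and 5.88 in iPS cells, 6.35, 6.31 and 6.23 in ES cells, then 8.39, 8.34 and 8.53 in day-1 cells, against 8.73, 8.77 and 9.10 in fibroblasts. Kit was high and Kitl low in all 6 pluripotent arrays, with no overlap for either gene. Kit was 21.2-fold higher in iPS cells (limma adjusted p = 6.6e-13) and 22.3-fold higher in ES cells (limma adjusted p = 4.0e-13), and Kitl 9.27-fold lower in iPS cells and 5.94-fold lower in ES cells, than in fibroblasts. Met, the receptor for hepatocyte growth factor, had log2 differences of -1.06 ± 0.11 in iPS cells, called, and -0.67 ± 0.11 in ES cells, not called. The Met call was lost with quantile normalization (-0.91).

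The 3 insulin and IGF1 genes were all called lower than in fibroblasts in both lines. Igf1, the ligand, had log2 values of 5.50, 5.52 and 5.44 in iPS cells, 5.66, 5.60 and 5.45 in ES cells, then 7.79, 7.55 and 7.51 in day-1 cells, against 7.57, 8.23 and 8.25 in fibroblasts. Igf1r, its receptor, read 8.12, 8.16 and 8.16 in iPS cells, 8.20, 8.19 and 8.03 in ES cells, then 9.84, 9.83 and 9.93 in day-1 cells, against 10.40, 10.31 and 10.35 in fibroblasts. Igf1r was thus lowest in both pluripotent lines, intermediate in day-1 cells and highest in fibroblasts. The log2 differences were -2.21 ± 0.07 for Igf1r in both lines, and -1.25 ± 0.08 in iPS cells and -1.71 ± 0.08 in ES cells for Insr, the insulin receptor, whose call in iPS cells ended with centred arrays (-1.0). Fgfr1op2 was called in none of the comparisons, with log2 differences of -0.43 ± 0.08 in iPS cells and -0.39 ± 0.08 in ES cells against fibroblasts.

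**Figure D3:**
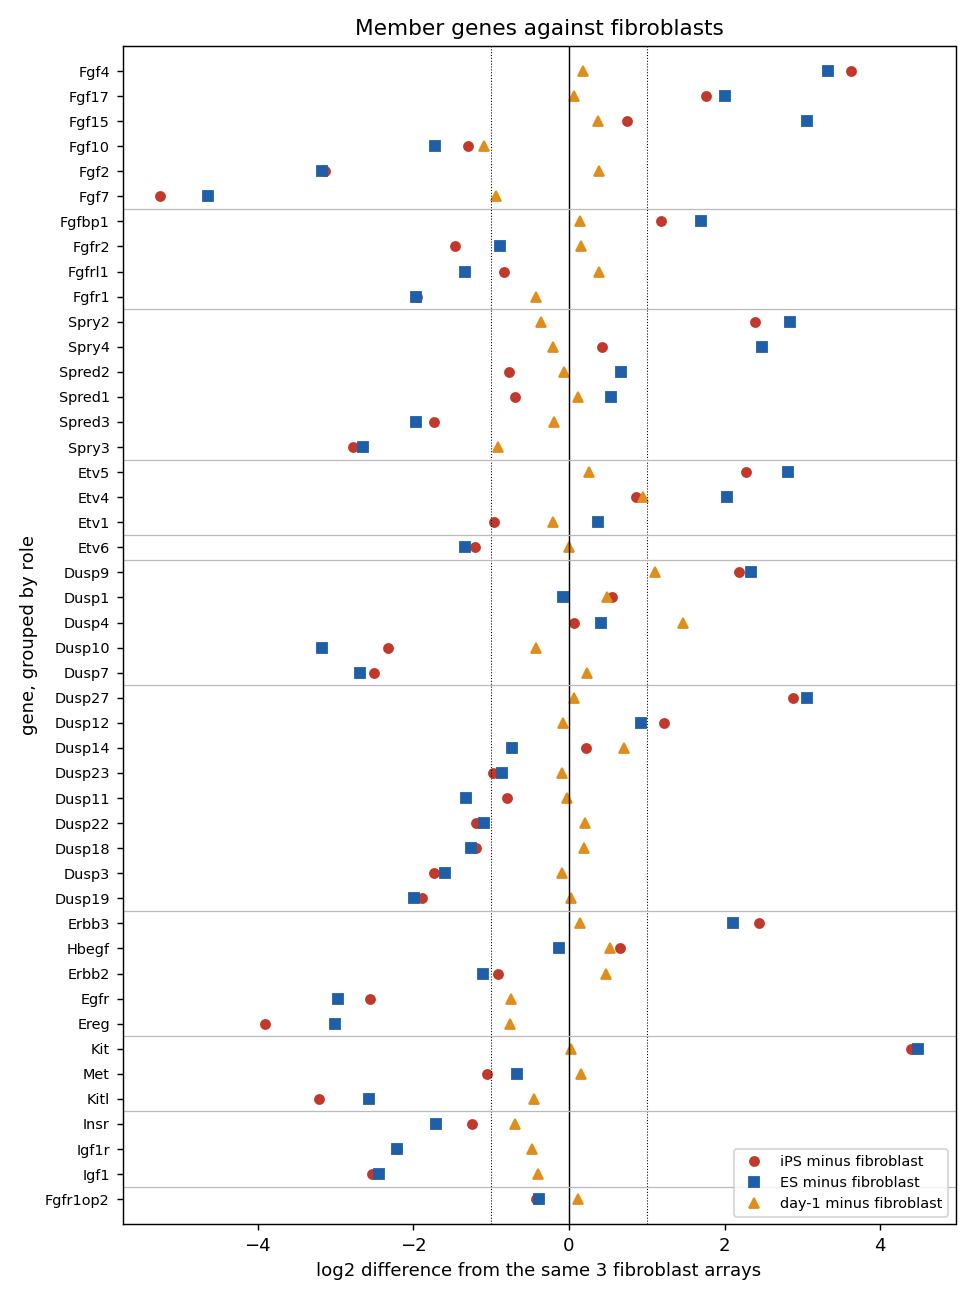
Log2 difference of the 46 genes from the same 3 fibroblast arrays, for iPS cells (circles), ES cells (squares) and day-1 cells (triangles), with dotted lines at -1 and 1, the 2-fold minimum of a call. Kit lies at 4.40 for iPS cells and 4.48 for ES cells, Fgf7 at -5.25 and -4.64, and most day-1 triangles lie between the dotted lines.

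The comparison of iPS with ES cells sets the line made by Oct4 and Tet1 beside a line from the embryo. Most of the pathway differed by less than 2-fold, but 6 genes were called lower in iPS cells and 0 higher, where 2.45% and 4.44% of all tested genes were. The 6 were the ligand Fgf15, the inhibitors Spry4, Spred2 and Spred1, and the PEA3 factors Etv1 and Etv4. The log2 differences were -2.33 ± 0.16 for Fgf15 (5.02-fold lower, limma adjusted p = 1.4e-07), -2.06 ± 0.11 for Spry4 (4.16-fold lower, limma adjusted p = 1.8e-08), -1.45 ± 0.09 for Spred2, -1.34 ± 0.14 for Etv1, -1.24 ± 0.07 for Spred1 and -1.17 ± 0.09 for Etv4. Over all 46 genes, the 3 iPS arrays lay below the 3 ES arrays without overlap for 14 (30.4%), where they did so for 30.1% of all tested genes. Without the 2-fold minimum, 24 of the 46 (52.2%) had an adjusted p under 0.05 by limma, against 57.7% of all genes. Of the inhibitors, 3 of 6 were called lower, and of the PEA3 factors 2 of 3. Spry2 and Etv5, called higher than in fibroblasts in both lines, read lower in iPS than in ES cells on every array, with log2 differences of -0.45 (95% interval -0.65 to -0.25) and -0.54 (-0.69 to -0.40), under the 2-fold minimum.

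Fgf4, Fgfr1, Fgfr2 and Kit did not differ by 2-fold between the lines. Fgf4 had a log2 difference of 0.29 (95% interval 0.02 to 0.57), Fgfr1 of 0.03 (-0.14 to 0.19), Fgfr2 of -0.58 (-0.81 to -0.36) and Kit of -0.07 (-0.30 to 0.15). For 34 of the 46 genes the 95% interval of the difference lay within 2-fold in either direction. None of the 5 MAP kinase phosphatases was called. By limma 2 had an unadjusted p under 0.05 and an adjusted one as well, and missed only the 2-fold minimum, Dusp10 with a log2 difference of 0.86 ± 0.18 (adjusted p = 0.0012) and Dusp1 with 0.63 ± 0.11 (adjusted p = 2.7e-04). The widest uncalled differences were 0.95 ± 0.10 for Dusp14 and -0.89 ± 0.20 for Ereg. Dusp14 passed without ES replicate 2 (1.02), Dusp10 without iPS replicate 2 (1.06), and Ereg without ES replicate 3 (-1.14) or with quantile normalization (-1.05). The median log2 difference of the 46 genes was -0.08, and 0.01 over all tested genes.

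**Figure D4:**
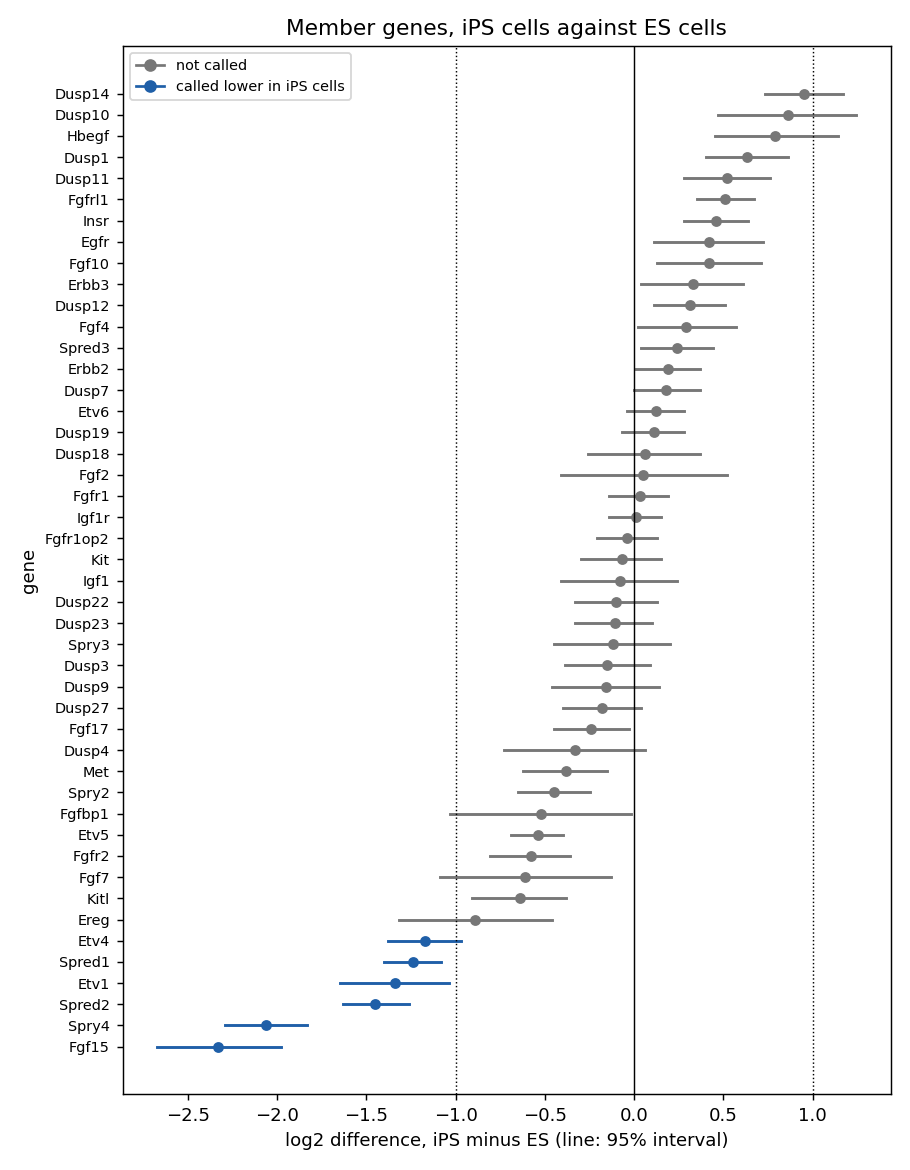
Log2 difference of each of the 46 genes, iPS minus ES, with its 95% interval as a line, ordered from highest to lowest, and dotted lines at -1 and 1. The 6 genes called lower in iPS cells are blue and end with Spry4 at -2.06 and Fgf15 at -2.33, and the highest value is 0.95 for Dusp14.

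Other genes of the pathway did not all move with these 6. For the lists that follow, 4.44% of all tested genes were called higher in iPS than in ES cells and 2.45% lower. Of 20 early genes that ERK can induce, 5 were called higher in iPS than in ES cells (25%) and 1 lower (5%). Egr2, an immediate early zinc finger factor, had log2 values of 8.37, 8.36 and 8.41 in iPS cells, against 6.93, 6.43 and 6.56 in ES cells. Its log2 difference was 1.74 ± 0.11, that of Ier3 1.66 ± 0.12 and that of Ier5 1.52 ± 0.09. The gene called lower was Myc, named after its values were seen, with a log2 difference of -1.26 ± 0.13. Of 14 genes of the Ras to ERK core and its adaptors, Rras alone was called, 1.19 ± 0.09 higher on the log2 scale, and of 19 other negative regulators limma called 0. By both unadjusted and adjusted p, 13 of the 19 were under 0.05 (68.4%, against the 57.7% of all genes) and missed the 2-fold minimum. The log2 differences of the 19 had a median of 0.00 and ran from -0.88 ± 0.12 for Errfi1, an inhibitor of the EGF receptor and the list's highest in mean level, to 0.83 for Lrig1 and Pea15a. Of 16 genes for heparan sulphate carriers, the enzymes that make it, Klotho and the Flrt membrane proteins, Sdc2 (2.34 ± 0.10) and Flrt2 (1.12 ± 0.17) were called higher. Of 14 other receptor tyrosine kinases 3 were called higher, led by Axl (1.55 ± 0.16), and of 15 other ligands 4 were called higher, led by Igf2 (1.83 ± 0.21), and Vegfc was called lower (-1.03 ± 0.09).

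Cell markers moved between the 2 lines as well. Of the 11 fibroblast markers, 5 were called higher in iPS than in ES cells, led by Lox (3.03 ± 0.27) and Postn (2.74 ± 0.24) on the log2 scale, and Dcn was called lower (-2.08 ± 0.12). As given above, the mean over all 11 was higher in every iPS array than in any ES array. Zfp42 was the 1 pluripotency marker of 12 called, lower in iPS cells (-2.77 ± 0.16), and of 4 primed epiblast and trophoblast markers Otx2 was called lower (-2.79 ± 0.17). The other 3 were not called, at -0.70 for Eomes, -0.65 for Dnmt3b and 0.06 for Tfap2c. Otx2 had log2 values of 6.33, 6.15 and 6.51 in iPS cells, against 9.45, 8.62 and 9.28 in ES cells. The part of these markers, of feeder cells, of strain and of passage in the differences of the 6 genes was not tested, and line, strain and passage cannot be told apart.

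Promoter sequences are shown for 3 of the genes lower in iPS than in ES cells and 3 that were high in both lines, as the stretches that could be set side by side. RefSeq entries on build GRCm38.p6 were used for 33 of the 46 genes, each with 250 bases before the transcription start and 50 from it on. The search for the 46 genes skipped a whole chromosome, so any of them lying there is not among the 33. The windows are Etv1 at chr12:38779832-38780131 on the plus strand, Spred1 at chr2:117120821-117121120 on the plus strand and Spred2 at chr11:19924192-19924491 on the plus strand, followed by Etv5 at chr16:22439521-22439820 on the minus strand, Spry2 at chr14:105896770-105897069 on the minus strand and Fgf4 at chr7:144861136-144861435 on the plus strand. Capitals mark CCGGAA, 1 spelling of a site for ETS factors, and the GC box GGGCGG, on either strand.
Etv1: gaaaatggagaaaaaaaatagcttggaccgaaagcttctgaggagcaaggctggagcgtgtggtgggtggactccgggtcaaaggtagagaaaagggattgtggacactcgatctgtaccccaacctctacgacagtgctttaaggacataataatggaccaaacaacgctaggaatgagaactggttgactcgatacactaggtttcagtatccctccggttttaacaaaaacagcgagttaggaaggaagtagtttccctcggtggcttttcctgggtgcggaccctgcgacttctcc
Spred1: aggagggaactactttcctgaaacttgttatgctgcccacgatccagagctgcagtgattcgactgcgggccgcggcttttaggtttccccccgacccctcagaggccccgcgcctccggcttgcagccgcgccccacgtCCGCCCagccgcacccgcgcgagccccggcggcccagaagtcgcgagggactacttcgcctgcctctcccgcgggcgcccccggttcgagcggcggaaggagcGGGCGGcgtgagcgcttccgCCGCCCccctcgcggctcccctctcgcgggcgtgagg
Spred2: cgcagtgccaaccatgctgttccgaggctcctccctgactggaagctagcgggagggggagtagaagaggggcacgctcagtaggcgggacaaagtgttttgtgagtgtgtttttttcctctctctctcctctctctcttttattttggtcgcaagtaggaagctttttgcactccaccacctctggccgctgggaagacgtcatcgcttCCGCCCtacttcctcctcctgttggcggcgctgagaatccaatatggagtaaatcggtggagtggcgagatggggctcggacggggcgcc
Etv5: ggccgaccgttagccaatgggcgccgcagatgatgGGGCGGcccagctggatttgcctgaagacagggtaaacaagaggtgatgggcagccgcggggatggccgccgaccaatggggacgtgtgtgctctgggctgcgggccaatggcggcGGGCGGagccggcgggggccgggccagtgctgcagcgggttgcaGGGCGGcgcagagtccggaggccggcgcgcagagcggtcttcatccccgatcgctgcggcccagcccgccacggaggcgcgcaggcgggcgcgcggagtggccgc
Spry2: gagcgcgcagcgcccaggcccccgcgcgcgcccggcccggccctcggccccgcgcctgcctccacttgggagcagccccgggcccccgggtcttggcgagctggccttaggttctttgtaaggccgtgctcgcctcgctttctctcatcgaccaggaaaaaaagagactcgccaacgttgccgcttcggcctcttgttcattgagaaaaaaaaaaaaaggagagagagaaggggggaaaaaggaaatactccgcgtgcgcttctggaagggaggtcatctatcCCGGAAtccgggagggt
Fgf4: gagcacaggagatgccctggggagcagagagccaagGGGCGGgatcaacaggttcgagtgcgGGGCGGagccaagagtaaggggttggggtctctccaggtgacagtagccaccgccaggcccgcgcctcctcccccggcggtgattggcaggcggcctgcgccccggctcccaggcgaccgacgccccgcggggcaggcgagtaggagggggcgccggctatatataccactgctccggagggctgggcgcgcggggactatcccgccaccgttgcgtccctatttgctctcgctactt

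Only Spry2 of these 6 windows held CCGGAA, and it lies near the end of the window. Other spellings that ETS factors bind were not searched, so the windows may hold further sites for PEA3 factors. The GC box, read by Sp1-type factors, was found 3 times each in Spred1 and Etv5, 2 times in Fgf4 and 1 time in Spred2. The Etv1 window held neither of these exact spellings. Etv1 and Etv5 each have 2 listed transcription starts, of which 1 is shown, so these windows do not stand for all promoters of the 2 genes. Over the 33 genes used, 6 held CCGGAA in any of their promoters, and 23 held the GC box. Of all 32851 promoters in the table, with no chromosome skipped, 14.9% held CCGGAA and 35.7% the GC box. The counts are per gene, some with several promoters, and the percentages per promoter, so they are not the same measure. The octamer ATGCAAAT, which Oct4 binds, was in 0 of the 33 and in 1.74% of all promoters. The searches covered both strands, and the motifs as spelled do not overlap each other in the windows shown. A match is a run of letters and was not set against binding.

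In day-1 cells against fibroblasts, 3 of the 46 genes were called (6.52%), where 7.79% of all tested genes were. Dusp4 and Dusp9 were called higher, 2 of 46 where 3.46% of all tested genes were, and Fgf10 lower, 1 of 46 where 4.33% were. By the values above, Dusp4 was 2.76-fold higher, a log2 difference of 1.46 ± 0.18 (limma adjusted p = 2.0e-05), Dusp9 2.15-fold higher (1.10 ± 0.14, limma adjusted p = 2.2e-05) and Fgf10 2.13-fold lower (-1.09 ± 0.13, limma adjusted p = 1.8e-05). Without the 2-fold minimum, 21 of the 46 (45.7%) had an adjusted p under 0.05 by limma, against 57.1% of all genes, and the arrays of the 2 groups did not overlap for 27 (58.7%), against 67.3%. For 38 of the 46 genes the 95% interval lay within 2-fold, and the median log2 difference was 0.04, against 0.05 over all tested genes. Fgf4 (0.18 ± 0.13), Kit (0.02 ± 0.10) and Etv5 (0.26 ± 0.07) are among the 12 genes higher in all pluripotent arrays than in the others. These stayed near fibroblast level on day 1, although the Etv5 arrays of the 2 groups did not overlap (limma adjusted p = 0.0051). Of the 12, Dusp9 was called higher as given above, while Spry2 read lower (-0.36 ± 0.09), not called. Etv4 came closest to a call, with a log2 difference of 0.95 ± 0.09, followed by Fgf7 with -0.94 ± 0.22 and Spry3 with -0.91 ± 0.15. Without fibroblast replicate 1, Etv4 (1.01) and Spry3 (-1.06) passed and Fgf10 (-0.96) did not.

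Around these genes on day 1, the early genes Fosb, Fos and Plaur were called higher and Ier3 lower, 4 of 20 (20%). Of all tested genes, 7.79% were called in either direction. Fos, a subunit of the AP-1 transcription factor, had log2 values of 8.66, 8.86 and 9.02 in day-1 cells, against 6.91, 7.53 and 7.61 in fibroblasts. Its log2 difference was 1.50 ± 0.19, and that of Fosb 1.82 ± 0.17. Of the other negative regulators Ptprj was called higher (1.10 ± 0.08) and Lrig1, which promotes turnover of EGF receptors, lower (-1.39 ± 0.09). Limma called 0 of the 14 Ras to ERK core genes. Of these, 8 had an unadjusted p under 0.05 and 7 (50%) an adjusted one, against 57.1% of all genes. Of 14 other receptor tyrosine kinases 1 was called, Pdgfra (-1.16 ± 0.12). Of the 16 heparan sulphate, Klotho and Flrt genes, Ndst3 was called higher (1.34 ± 0.15). Of 15 other ligands, Vegfc (-1.28 ± 0.09) and Pdgfd (-1.01 ± 0.20) were called lower. Of the 11 fibroblast markers Dcn and Twist2 were called lower in day-1 cells, and of 8 macrophage markers 1 was called higher and 3 lower. The part of these shifts, and of medium against doxycycline, in the day-1 differences was not tested.

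Against day-1 cells, iPS cells differed in 32 of the 46 genes, 69.6% where 44.2% of all tested genes were called in either direction. In iPS cells Kit was 20.8-fold higher, Fgf4 10.9-fold, Dusp27 7.02-fold, Spry2 6.71-fold, Erbb3 4.90-fold and Etv5 4.07-fold higher than in day-1 cells, all called. Fgf7 was 19.9-fold lower, Fgf2 11.4-fold, Ereg 8.78-fold, Kitl 6.79-fold, Dusp7 6.68-fold and Igf1 4.38-fold lower. Dusp4, high on day 1, was called lower in iPS cells by 2.62-fold, and Dusp9 was called higher again by 2.12-fold. Spry4 had a log2 difference of 0.63 ± 0.11 and Etv4 of -0.09 ± 0.09, neither called. Fgfbp1 was called higher (1.04 ± 0.23), but not without iPS replicate 1 (0.92) or day-1 replicate 1 (0.99).

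In the wider pathway, lower calls outnumbered higher ones against fibroblasts in each of the 6 lists that follow, as they did over all tested genes, of which 29.6% were called lower in iPS cells and 32.1% in ES cells. Of 14 other receptor tyrosine kinases, 8 were called lower (57.1%) and 1 higher in iPS cells, and 9 lower (64.3%) and 1 higher in ES cells. Pdgfra, a platelet-derived growth factor receptor, had log2 values of 6.39, 6.58 and 6.88 in iPS cells, 7.37, 7.36 and 7.45 in ES cells, then 9.93, 9.83 and 9.82 in day-1 cells, against 10.78, 11.12 and 11.16 in fibroblasts. Tyro3 was the gene called higher in both lines. Of the 16 heparan sulphate, Klotho and Flrt genes, limma called 10 lower in iPS cells (62.5%), 11 lower in ES cells (68.8%) and 0 higher in either line. Flrt2 led in both (log2 differences of -3.61 ± 0.17 and -4.72 ± 0.17). Of 15 other ligands, 9 were called lower in iPS cells (60%) and 11 in ES cells (73.3%), while Mdk was called higher in both (2.31 ± 0.10 and 2.28 ± 0.10). Gab1, a docking protein downstream of many receptors, was the 1 of 14 core genes called higher, by 1.88 ± 0.07 in iPS cells and 2.49 ± 0.07 in ES cells, with 6 lower in iPS cells (42.9%) and 5 in ES cells (35.7%). Il17rd, a membrane inhibitor of FGF signalling, was called higher in both (1.09 ± 0.16 in iPS cells and 1.01 ± 0.16 in ES cells), among 19 negative regulators of which 10 were called lower in iPS cells (52.6%) and 8 in ES cells (42.1%). The 20 early genes were the most evenly split of the 6 lists, with 6 called lower and 5 higher in iPS cells, and 7 lower and 4 higher in ES cells.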

How the data were processed

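Total RNA of 4 groups of mouse cells was hybridised to 12 Affymetrix arrays after whole-transcript biotin labelling, per the labels' protocols. The authors deposited 1 table of log2 values per probe set; log2 was taken from the range of 2.43 to 13.64, and the summary and normalization steps are not given in the sources used here. Across the arrays, the smallest range of any probe set was 0.51, so shares of genes refer to a table of varying genes.

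Gene symbols came from the array platform's 2016 annotation: of the probe sets, 9542 had 1 symbol, 344 several and 474 none. For 3 genes with over 1 probe set, the one of highest mean was used, which left 9539 genes. Differences, standard errors, 95% intervals and adjusted p-values came from limma 3.58.1 in R 4.3.3, with 1 mean per group over all 12 arrays, and eBayes. Each of 5 comparisons was adjusted by Benjamini-Hochberg over the 9539 genes. A gene was called where its adjusted p was under 0.05 and its log2 difference at least 1 in size. The fit was tested on simulated data. Tables and plots used Python 3.11.15, pandas 2.3.3, numpy 2.4.6 and matplotlib 3.10.9.

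The rule for the 46 genes reads symbols alone, but the rule, the lists and the tests were chosen with earlier results of these data known. Named with values were all FGF, receptor, Sprouty, Spred and PEA3 genes, the named receptors and ligands, the 6 highest and 6 lowest called differences of each comparison, and up to 3 called genes of each pathway list, or its gene of highest mean where none was called; others were added after their values were seen. Comparisons with fibroblasts share the same 3 arrays, so their values stand side by side without a test between them. Alternatives were quantile normalization, centring, dropping the 25% of genes with the lowest mean, fitting 2 groups, a trended robust prior, a replicate block, the mean of probe sets and leaving out each array.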

Additional observations from a re-analysis of the deposited data

How the results depend on the processing

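The counts of called genes of the 46 stayed within 1.5 times under every alternative run. Leaving out 1 array at a time gave 31 to 32 calls in iPS cells and 33 to 34 in ES cells against fibroblasts, 6 to 7 in iPS against ES cells, 3 to 4 in day-1 cells against fibroblasts, and 31 to 32 in iPS against day-1 cells. Centring the arrays gave 27, 30, 6, 3 and 29 in the same order, and moved the median of all genes from -0.35 to -0.10 in iPS cells and to -0.00 in ES cells against fibroblasts. Without the 25% of genes lowest in mean, 41 of the 46 genes were left in the fit, with 5 calls in iPS against ES cells. The gene missing there was Fgf15, the lowest in mean level of the 6 called, which was not in that fit. Calls of genes left out of that fit are not counted as lost below. Of 106 called differences none reversed, and 16 lost their call under at least 1 alternative, among them Dusp22 in ES cells against fibroblasts without fibroblast replicate 2 (-0.97); 10 uncalled ones gained a call, among them Dusp23 in iPS cells without fibroblast replicate 2 (-1.04) or iPS replicate 2 or 3 (-1.01 each) and Etv1 in iPS cells without fibroblast replicate 1 (-1.04). The cause was not tested. The replicate block left the counts at 31, 34, 6, 3 and 32. Deviations of arrays of the same number from their group means correlated with r of -0.208 to 0.064, which cannot show whether the numbers pair the samples.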
